A study of Mus musculus with 36 samples.

Results

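The arrays described here hold RNA of mouse NIH3T3 fibroblasts that carry an Erbb2 transgene and had been kept in tetracycline for 7 days. They are 4 of the 36 two-colour cDNA arrays of a time course, chosen by the title that names the time, and no measured value entered the choice. They were set against the untreated arrays, of which 4 were deposited and 3 were distinct: a fixed offset of 0.771 (SD 0.0005 over 19840 values) separates untreated replicate 1 from replicate 2, and they were counted as 1 array. Further comparisons used the 4 arrays of 5 days, the 4 of 3 days and the 20 of 1, 2, 4, 12 and 24 h. All groups are the same Erbb2-transfected line, and channel 2 of every array, treated or not, is labelled as untreated cells of that line. The labels give neither the tetracycline dose nor whether the line is 1 clone, and nothing in them shows that replicates came from different cultures, so the p-values measure the spread between arrays, which may be technical.

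ERBB2 is a growth factor receptor with tyrosine kinase activity, closely related to the EGF receptor. It has no ligand of its own known to bind it with high affinity, pairs with the other family members, and signals through the RAS-ERK and PI3K-AKT pathways. In a tet-off system a tetracycline-controlled transactivator drives the transgene in the absence of the drug, and the drug releases it from its operator. NIH3T3 cells are an immortalised line of embryonic fibroblasts that stop dividing on contact or without serum, and transformation by growth-promoting oncogenes is known to alter their collagens, lysyl oxidase and secreted proteases. No probe on the array is annotated as Erbb2, so the shutdown of the transgene could not be checked here.

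Values are log2 ratios centred on each array's median, with the arrays whose channel 1 was in Cy3 (replicates 3 and 4 of each group) multiplied by -1. A value above 0 then means more RNA at the labelled time than in the untreated RNA on the same array. No file states which channel is the numerator, so this direction is assumed. If the ratios ran the other way, all signs would turn, and the sizes and p-values would stay. Between 18331 and 18725 probes had a value on the 7 day arrays, whose interquartile range was 0.736 to 0.843. At 1 to 24 h this range was 0.357 to 0.504, and for untreated cells 0.492 to 0.7. After turning, the 7 day arrays of 1 dye correlated at a Spearman rho of 0.195 and 0.198 across probes and those of opposite dye at -0.052 to 0.056. Among the untreated arrays, rho between opposite dyes was -0.467 and -0.378, and 0.502 between the Cy3 arrays. Arrays carry no read depth, and their number limits the precision.

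Promoters of 4 genes on which the results below turn are shown, from 250 bases before to 50 after the annotated start, 5′ to 3′ on the gene's strand (RefSeq, GRCm38.p6). They belong to Plpp3 (the gene of the single probe called against the untreated arrays), Col1a2 (a collagen gene that was higher together with other matrix genes), and Ctsl and S100a4 (genes that were lower). Of the 90 genes named or counted by name below, 68 had an entry in the RefSeq table. Plpp3 lies on chr4:105157097-105157396 on the plus strand, Col1a2 on chr6:4505368-4505667 on the plus strand, Ctsl on chr13:64370471-64370770 on the minus strand and S100a4 on chr3:90603520-90603819 on the plus strand. Capitals mark matches on either strand to the TATA box (TATAAA), the CCAAT box (CCAAT), the GC box (GGGCGG) and the AP-1 site (TGANTCA).
Plpp3: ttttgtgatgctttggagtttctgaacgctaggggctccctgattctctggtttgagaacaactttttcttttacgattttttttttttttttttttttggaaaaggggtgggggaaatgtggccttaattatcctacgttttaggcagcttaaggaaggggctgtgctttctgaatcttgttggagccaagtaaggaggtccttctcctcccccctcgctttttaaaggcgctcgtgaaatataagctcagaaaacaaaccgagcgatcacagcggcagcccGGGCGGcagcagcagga
Col1a2: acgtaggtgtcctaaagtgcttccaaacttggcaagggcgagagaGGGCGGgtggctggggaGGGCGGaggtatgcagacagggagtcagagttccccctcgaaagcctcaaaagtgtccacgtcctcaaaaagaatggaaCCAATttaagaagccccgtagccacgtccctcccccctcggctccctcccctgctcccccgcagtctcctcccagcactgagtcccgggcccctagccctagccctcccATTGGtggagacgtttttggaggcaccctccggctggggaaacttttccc
Ctsl: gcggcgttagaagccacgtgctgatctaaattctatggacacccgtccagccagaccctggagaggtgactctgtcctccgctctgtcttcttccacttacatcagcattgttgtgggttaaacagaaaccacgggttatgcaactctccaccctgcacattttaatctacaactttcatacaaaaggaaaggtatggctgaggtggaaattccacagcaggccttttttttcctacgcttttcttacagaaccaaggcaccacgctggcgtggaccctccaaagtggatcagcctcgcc
S100a4: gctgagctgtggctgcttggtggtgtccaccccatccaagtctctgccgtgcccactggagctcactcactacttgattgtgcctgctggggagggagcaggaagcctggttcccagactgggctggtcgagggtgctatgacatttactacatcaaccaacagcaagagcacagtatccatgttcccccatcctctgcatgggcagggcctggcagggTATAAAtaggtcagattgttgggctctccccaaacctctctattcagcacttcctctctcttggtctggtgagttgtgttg
The Col1a2 window holds CCAAT at -109 and, read on the other strand, at 1, and GGGCGG at -205 and -188 (positions of the first base, counted from the start). The Plpp3 window holds GGGCGG at 34 and the S100a4 window TATAAA at -31. The Ctsl window holds none of these letters. Of 32851 promoters of this length, 13.6% hold the TATA box, 37.4% the CCAAT box, 35.7% the GC box and 7.81% the AP-1 site, and a match describes the window only.

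The first comparison, 7 days against the untreated arrays, asks what differed after a week on tetracycline. Plpp3, a membrane phosphatase that breaks down lysophosphatidic acid and related lipids, was the 1 gene with a probe that passed the test. Its probe 2228 read 2.01, 1.89, 2.21 and 2.06 on the 7 day arrays, against -0.22, 0.09 and 0.11 on the untreated arrays. The groups were far apart and both dyes gave the same level. The difference was 2.10 ± 0.21 (SE) on the log2 scale, with an adjusted p of 0.0032 (limma, Benjamini-Hochberg over 17034 probes). That is 1 probe called, 0.00587% of those tested, all of it higher at 7 days, and 762 probes (4.47%) had an unadjusted p under 0.05. Probe 16325 of Plpp3 read 1.47, 1.53, 1.01 and 1.16 at 7 days, against -0.16, 0.13 and 0.18 in untreated cells. That difference of 1.21 ± 0.22 had an adjusted p of 0.157 in limma. The third Plpp3 probe, 6113, had a value on only 2 of the 7 day arrays, -0.65 on replicate 2 and 0.70 on replicate 4, and was not tested. It stood far below the other probes there, and it enters the gene mean of Plpp3, which read 1.74, 0.92, 1.61 and 1.30 at 7 days, against -0.29, -0.48 and 0.15 in untreated cells. The difference of probe 2228 was 1.14 against 5 days (adjusted p 0.103) and 1.12 against 3 days (adjusted p 0.105). Without turning the Cy3 arrays the difference of probe 2228 was -0.30 and not called. Its call also ended when the arrays were not centred (1.73, adjusted p 0.451), when all arrays were fitted with a weight per group (2.12, adjusted p 0.404) and when only the 2 groups compared were fitted (2.09, adjusted p 0.567).

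On gene means, in which all probes of a gene were averaged, limma called 0 of 8717 genes against the untreated arrays (percent called 0), with 384 genes (4.41%) at an unadjusted p under 0.05. Averages can draw on different probes on different arrays where a probe has missing values. When a gene's mean was limited to the probes present on every array, an alternative chosen after the values were seen, limma called 4 genes: Plpp3, Sned1 and Zkscan1 higher and S100a10 lower. The same genes had adjusted p-values of 0.127, 0.127, 0.379 and 0.948 when all their probes were averaged. The count of 4 therefore rests on that choice and is not used below.

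The other probes described here are a selection from those of smallest p in each direction, and none of them passed. Sned1, a secreted matrix protein with sushi, nidogen and EGF-like domains, read 1.65, 1.81, 0.92 and 1.29 at 7 days, against -0.04, -0.05 and -0.32 in untreated cells (1.49 ± 0.23, adjusted p 0.0766). Btg2, an antiproliferative gene induced by p53, read 0.84, 0.94, 1.24 and 1.16 on probe 3966, against -0.35, 0.03 and -0.20 (1.27 ± 0.19, adjusted p 0.0766). S100a10, a partner of annexin A2, read -1.22, -0.79, -1.32 and -1.27 on probe 18275, against 0.15, 0.52 and 0.66 (-1.57 ± 0.23, adjusted p 0.0766). In each of these the groups did not overlap, as was also true of 3.75% of all probes above and 3.87% below. Probe 3508 of Runx3, a transcription factor of the Runt family, differed by 1.21 ± 0.24 (adjusted p 0.284). Probe 1362 of Runx3 went the other way (-0.32 ± 0.33). The gene mean of Runx3 differed by 0.45 ± 0.26 (adjusted p 0.999 in limma) and overlapped with untreated. Probe 4233 of Marcks, an actin-binding substrate of protein kinase C, differed by 2.22 ± 0.45 (adjusted p 0.284). On the lower side stood 3 probes of fibronectin (Fn1), at -1.42 ± 0.27, -1.13 ± 0.26 and -1.05 ± 0.25, with adjusted p-values of 0.206, 0.434 and 0.434. Those 3 probes share a target and are not independent. Also among the smallest p were Dcn, Ier3, Ctsl and Psat1, described below, and Lgi2 (2.54 ± 0.39, adjusted p 0.151 in limma). Lower probes were 12431 of Ncbp1 (-2.30 ± 0.44, adjusted p 0.264), 9388 of Akap9 (-1.23 ± 0.27, 0.356) and 18813 of Mmp9 (-1.43 ± 0.31, 0.387). The other probe of Ncbp1, Akap9 and Mmp9 differed by 0.01, -0.34 and 0.06.

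Since untreated RNA is on every array, the mean ratio of the 7 day arrays can also be set against 0. This takes untreated cells to lie at 0 and leaves out the uncertainty of the untreated mean. The test was made in the fit used against untreated, so the spread and dye effect per probe also drew on other arrays. Those other arrays include the untreated ones. By this test limma called 92 of 17858 probes (0.515%), 69 higher (0.386%) and 23 lower (0.129%), and 49 of 8994 gene means (0.545%), 40 higher (0.445%) and 9 lower (0.1%). The median over all genes was -0.0025. Among 43 extracellular matrix genes 9 were higher and 1 was lower, with a list median of 0.44. The 9 were Col1a1, Col1a2, Dcn, Fbln5, Lox, Ogn, Serpinh1, Sparc and Thbs2, and the 1 lower was Fn1. The immediate early genes Ier2, Ier3 and Junb were higher among 15 tested, and Gas1 and Pmp22 among 19 genes of growth arrest. Ctsl and Psat1 were lower.

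The matrix genes stood high on all arrays of 7 days. Their mean was 0.50, 0.42, 0.44 and 0.51 on the 7 day arrays, against 0.15, -0.10 and -0.11 on the untreated arrays and -0.44 to -0.02 (median -0.18) on the 20 arrays of 1 to 24 h. No array of another group reached the 7 day arrays. Against the untreated arrays, 34 of the 42 matrix genes tested were higher in sign and 8 lower, with a median of 0.42 beside 0.016 over all genes, and the arrays did not overlap for 16 genes above and 1 below. That compares with 3.88% of all genes above and 3.34% below. None of the 42 was called by limma (adjusted p 0.05), as for all genes.

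**Figure D1:**
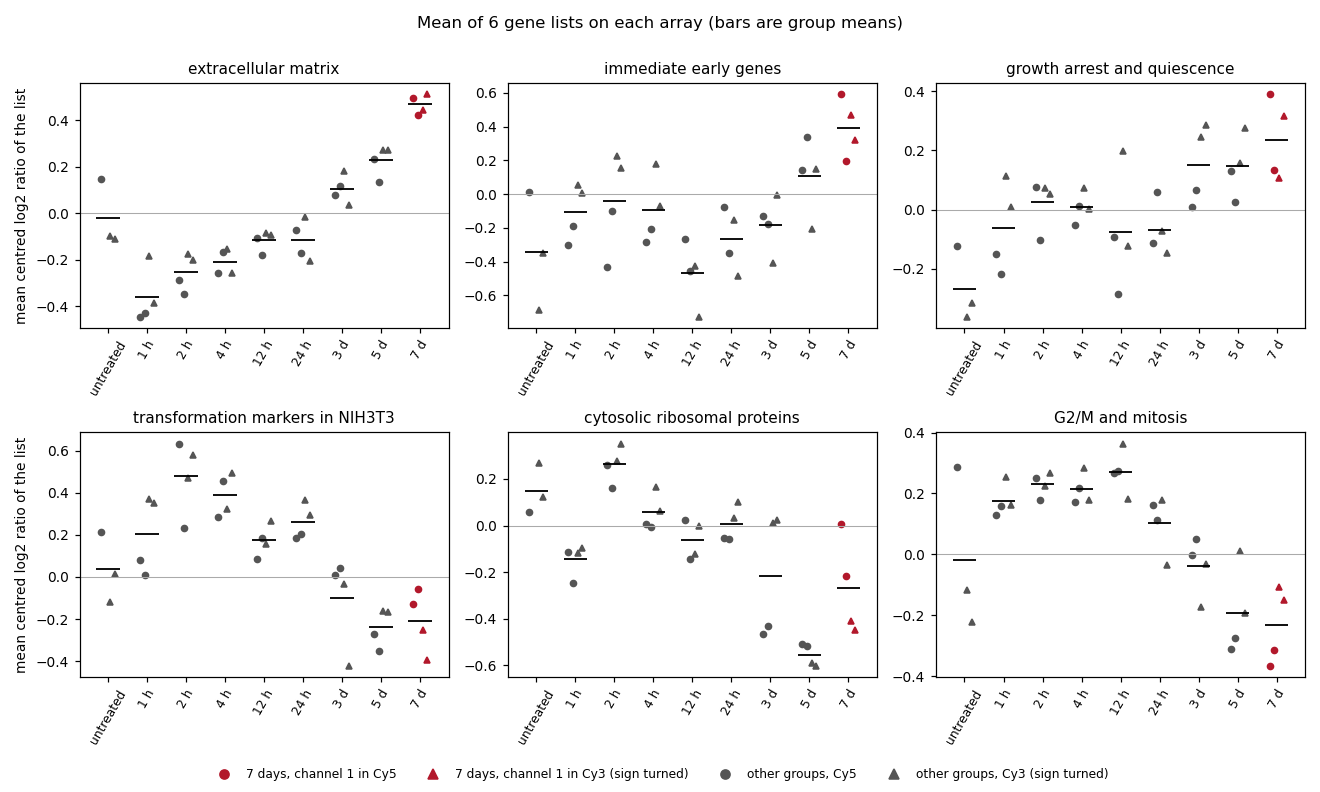
Mean centred log2 ratio of 6 gene lists (y axis, log2) on every array, by time on tetracycline (x axis, untreated at the left). Circles are arrays with channel 1 in Cy5, triangles those in Cy3 with the sign turned, bars are group means, and 7 day arrays are red. The matrix list lies at 0.42 to 0.51 at 7 days, above every other array, while the ribosomal list spreads from -0.45 to 0.00 by dye.

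The 20 arrays of 1 to 24 h give the comparison with the most arrays, and none of them is an untreated array. Limma, with a weight per group because the early arrays spread less, called 339 of 16662 probes (2.03%), of which 156 were higher (0.936%) and 183 lower (1.1%). Of these, 223 differed by at least 1 log2 unit and 233 did not overlap with any early array. Over all probes tested, 1.07% lay above and 1.21% below every early array. On gene means 194 of 8573 genes were called (2.26%), 93 higher (1.08%) and 101 lower (1.18%), with a median of -0.012 over all genes. With the spread taken from the late arrays alone, an alternative chosen after the values were seen, 169 probes were called (1.01%), 98 higher (0.588%) and 71 lower (0.426%), and 118 genes (1.38%), 63 higher (0.735%) and 55 lower (0.642%). Without turning the Cy3 arrays 12 probes and 4 genes were called, so these counts rest on the assumed turning. Each difference is from the mean over 1 to 24 h, and some genes moved within that span. The group mean of Col1a2 was -1.37 at 1 h and -0.06 at 24 h, and that of Ctsl 1.95 at 2 h and 0.53 at 24 h. Many genes called here stood on the other side of 0 at 1 to 24 h than at 7 days, so part of each difference comes from the early arrays. Values at 7 days and in untreated cells are therefore given beside each difference below, and no gene mean was called against untreated. On simulated arrays whose noise followed each group's own spread, this test, its version with the late spread and the test against untreated all called more unchanged probes than the threshold allows.

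**Figure D2:**
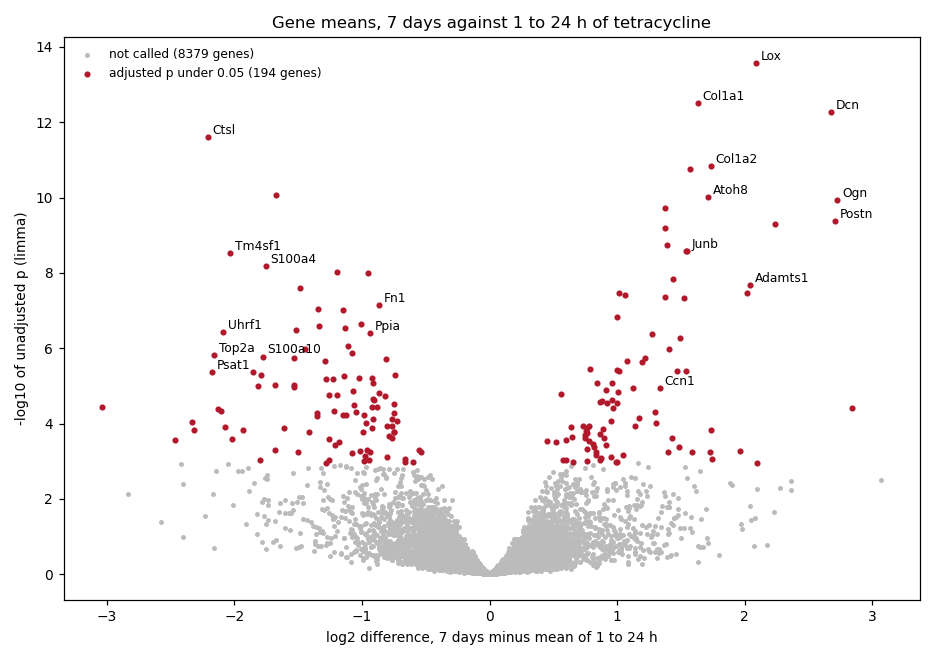
Difference of each gene mean at 7 days from the mean of 1 to 24 h (x axis, log2) against the -log10 of the unadjusted limma p (y axis), with 194 genes at an adjusted p under 0.05 in red and 8379 others in grey. Matrix genes such as Lox, Dcn and Col1a1 lead on the right and Ctsl on the left.

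Matrix genes made up the longest group of higher genes. Of 43 tested, 14 were higher and 1 lower, with a median of 0.43, beside 1.08% higher and 1.18% lower over all genes. The 14 were the fibrillar and other collagens Col1a1, Col1a2, Col3a1, Col5a2 and Col6a1, the small proteoglycans Dcn and Ogn, the collagen-binding Dpt, the fibulins Fbln2 and Fbln5, the matricellular proteins Postn and Sparc, the cross-linking enzyme Lox and the collagen chaperone Serpinh1. With the late spread 14 were called higher and 1 lower. The call of Fbln2 was lost without 7 day replicate 1, 3 or 4 (adjusted p 0.0701, 0.148 and 0.0982 in limma).

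Decorin (Dcn), which binds collagen fibrils and transforming growth factor beta, read 1.37, 1.58, 1.63 and 1.55 at 7 days. The untreated arrays read -0.17, 0.19 and 0.04, and the early arrays ranged from -1.95 to -0.47 (median -1.07). The 7 day arrays lay above all of them, by 2.68 ± 0.21 against 1 to 24 h (adjusted p 1.58e-09) and by 1.56 ± 0.26 against untreated (adjusted p 0.127). Osteoglycin (Ogn), a related small proteoglycan, read 1.88, 2.06, 1.59 and 1.87 at 7 days, against -1.72 to -0.31 on the early arrays (2.73 ± 0.26, adjusted p 1.11e-07). It had a value on 1 untreated array only, -1.55, and was not tested against them. Its mean at 7 days, 1.85, differed from 0 with an adjusted p of 0.00155.

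Both chains of collagen I, the main fibrillar collagen of fibroblasts, were higher. Col1a1 read 0.94, 1.18, 0.35 and 0.79 at 7 days, against -0.34, -0.42 and -0.22 in untreated cells and -1.68 to -0.08 on the early arrays. Its difference from 1 to 24 h was 1.63 ± 0.13 (adjusted p 1.36e-09). Col1a2, whose promoter is printed above, read 1.11, 1.15, 0.69 and 0.86 at 7 days, against -0.38, -0.80 and 0.05 in untreated cells and -1.45 to 0.02 early (1.73 ± 0.16, adjusted p 2.47e-08). Its 4 probes gave differences from 1 to 24 h of 1.61 to 1.82. Col3a1, with which collagen I forms mixed fibrils, differed by 1.41 ± 0.23 from 1 to 24 h (adjusted p 0.000215), but its untreated values of -0.25, 0.15 and 0.25 overlapped with 0.76, 0.89, 0.12 and 0.48 at 7 days.

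Lysyl oxidase (Lox), which cross-links collagen and elastin and was also isolated as a gene lost on ras transformation, read 1.41, 1.39, 1.23 and 1.53 at 7 days. The untreated arrays read -0.29, 0.41 and 0.49 and the early arrays -1.44 to -0.16. The difference was 2.09 ± 0.15 from 1 to 24 h (adjusted p 2.27e-10) and 1.23 ± 0.24 from untreated (adjusted p 0.224). One of its 3 probes had no value at 7 days, and the other two differed from 1 to 24 h by 2.35 and 2.20. Periostin (Postn) read 0.58, 1.18, 0.90 and 0.78 at 7 days, against -0.19, -0.22 and 0.31 in untreated cells and -2.45 to -1.27 early. Most of its difference of 2.71 ± 0.29 from 1 to 24 h (adjusted p 3.32e-07) therefore comes from low early arrays, and its difference from untreated was 0.95 ± 0.31 (adjusted p 0.796).

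Fibronectin (Fn1), the large adhesive glycoprotein that cells bind through integrins, was the 1 matrix gene called lower. It read -0.96, -1.04, -0.96 and -1.14 at 7 days, against -0.06, 0.16 and 0.30 in untreated cells and -0.54 to 0.04 on the early arrays. The difference from 1 to 24 h was -0.87 ± 0.12 (adjusted p 2.07e-05), and all 5 probes were lower, by 0.66 to 1.07 in size. Against untreated it was -1.12 ± 0.24 (adjusted p 0.239), and the mean of 7 days differed from 0 with an adjusted p of 0.0121.

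**Figure D3:**
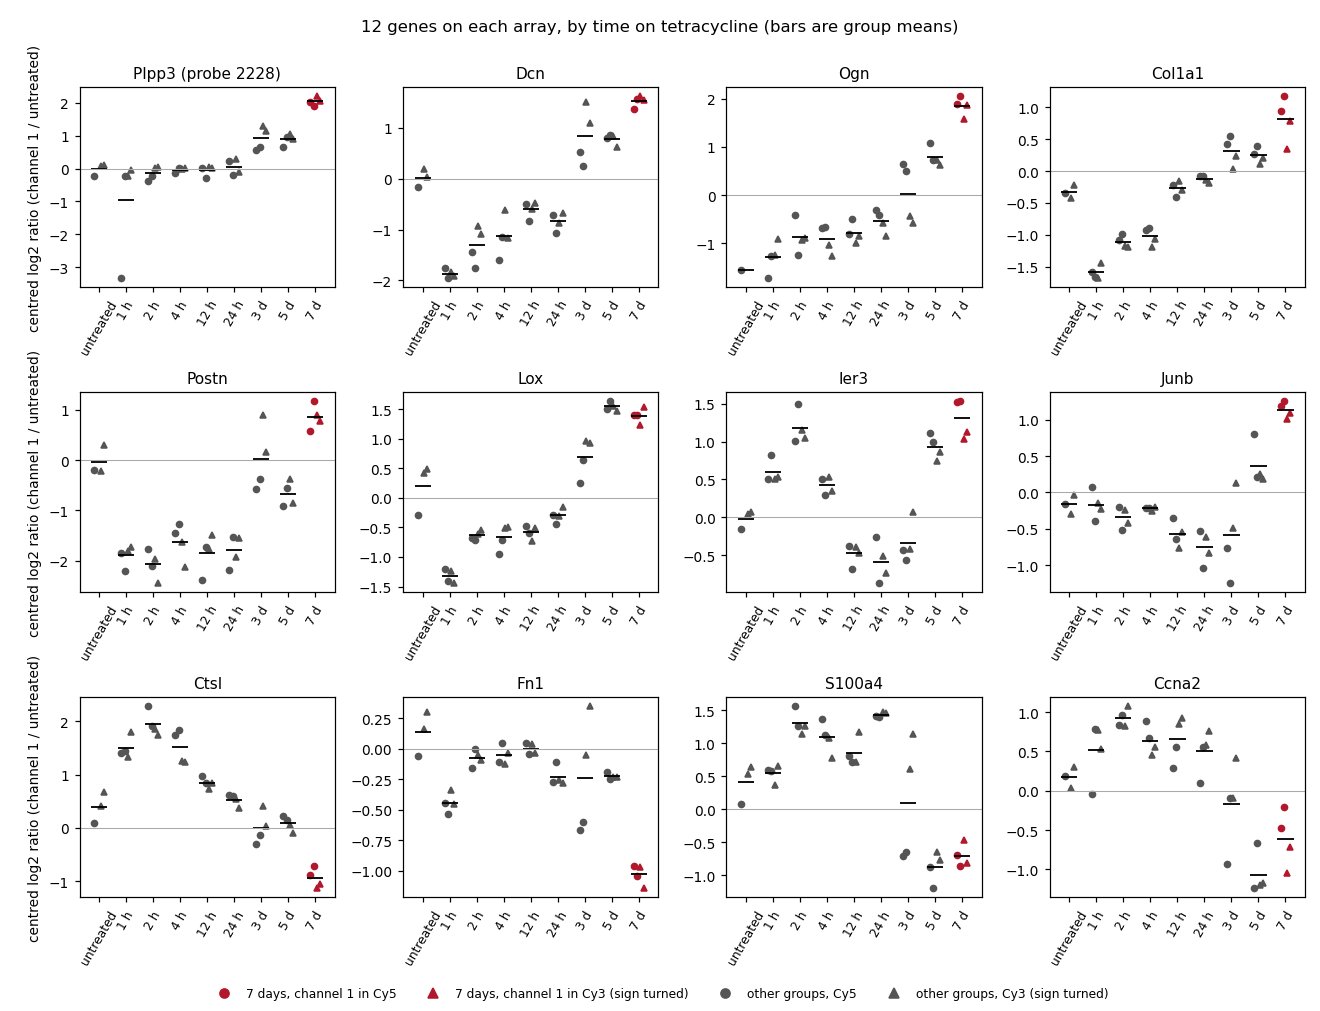
Centred log2 ratio to untreated RNA (y axis, log2) of 12 genes on every array, by time on tetracycline (x axis); Plpp3 is probe 2228 and the others are means over the gene's probes. Circles are Cy5 arrays, triangles Cy3 arrays with the sign turned, bars group means, 7 day arrays red. Dcn, Ogn, Col1a1, Postn and Junb stand at their highest group mean at 7 days, and Ctsl and Fn1 at their lowest.

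Immediate early genes, which serum and growth factors switch on within minutes, were higher at 7 days than at 1 to 24 h. Of 13 tested, 5 were higher and 0 lower, with a median of 0.40, where 1.08% of all genes were called higher. The 5 were the AP-1 subunit Junb, the nuclear protein Ier2, the survival gene Ier3, the matricellular Ccn1 and Btg2, and all 5 were also called with the late spread. Junb read 1.19, 1.26, 1.01 and 1.09 at 7 days, against -0.15, -0.30 and -0.04 in untreated cells and -1.03 to 0.07 early (1.55 ± 0.18 from 1 to 24 h, adjusted p 1.44e-06). Ier2 read 0.98, 1.01, 0.89 and 0.97 at 7 days, against -0.21, 0.03 and 0.24 in untreated cells and -0.78 to -0.04 early (1.39 ± 0.16, adjusted p 1.12e-06). Both genes stood above all of these arrays. Ier3 did not: it read 1.53, 1.54, 1.03 and 1.13 at 7 days but reached 1.5 on an early array. Against untreated, 12 of 15 genes of the list were higher in sign, with a median of 0.44, and limma called 0.

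Genes of growth arrest were fewer, and over all genes 1.08% were called higher. Of 18 tested, 3 were higher and 0 lower, with a median of 0.29: Btg2, Gas1, a membrane protein that blocks entry into S phase, and Pmp22, first cloned as a growth-arrest gene in NIH3T3. Gas1 read 1.43, 1.29, 0.55 and 0.91 at 7 days, against -0.22, 0.11 and 0.15 in untreated cells and -1.02 to 0.31 early (1.38 ± 0.15, adjusted p 4.34e-07). Pmp22 read 0.83, 0.83, 1.45 and 0.82 at 7 days, against -0.20, -0.06 and -0.08 in untreated cells and -1.05 to 1.07 early. Its call (1.14 ± 0.25) was lost without 7 day replicate 3 (adjusted p 0.0806). Of 6 ERK targets and feedback genes Ier3 was called, and of 14 AKT and FoxO targets Foxo3 and Pik3r1, neither of which was called with the late spread. The call of Foxo3 was also lost without 7 day replicate 1, 3 or 4, and that of Pik3r1 without replicate 1, 2 or 4. Among 8 tested genes of the ERBB family and its ligands none was called, where 2.26% of all genes were.

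Genes of the cell cycle were lower where they were called, beside 1.18% of all genes called lower. Of 32 genes of G2/M and mitosis 3 were lower and 0 higher, with a median of -0.22. They were the cyclin Ccna2, its kinase Cdk1 and the topoisomerase Top2a. Ccna2 read -0.47, -0.21, -1.05 and -0.71 at 7 days, against 0.19, 0.03 and 0.30 in untreated cells and -0.04 to 1.08 early (-1.26 ± 0.24, adjusted p 0.00186). Its probe 10601 differed by -1.87 ± 0.21 from 1 to 24 h, and probe 3536 by -0.65 ± 0.43 (adjusted p 0.719 in limma). Probe 3536 read 0.465 and 0.37 on the Cy5 arrays of 7 days and -0.92 and -0.48 on the Cy3 arrays. The group mean of Ccna2 was -0.61 at 7 days and -1.07 at 5 days. Cdk1 read -0.33, -0.28, -0.32 and -0.50 at 7 days, against -0.14, -0.02 and 0.27 in untreated cells and 0.02 to 0.93 early. Its difference was -0.88 ± 0.18 from 1 to 24 h (adjusted p 0.00328, and 0.0661 with the late spread) but -0.34 ± 0.28 from untreated. Top2a read -3.78, -1.15, -0.61 and -1.20 at 7 days, against 0.08, 0.31 and 0.27 in untreated cells and -0.23 to 0.92 early (-2.16 ± 0.35, adjusted p 0.000289). Of 35 genes of G1/S and replication 3 were lower and 0 higher, with a median of -0.28: the helicase subunit Mcm5, the sliding clamp Pcna and Uhrf1, which keeps DNA methylation through replication. Mcm5 read -2.65, -0.14, -1.73 and -1.86 at 7 days, against 0.18, 0.00 and 0.26 in untreated cells (-1.86 ± 0.33 from 1 to 24 h, adjusted p 0.000637, and 0.0671 with the late spread). Uhrf1 read -1.18, -2.52, -1.37 and -0.39 at 7 days, against 0.08, -0.13 and 0.44 in untreated cells (-2.09 ± 0.32, adjusted p 8.47e-05). These genes spread widely over the 7 day arrays. Pcna stood at 0.36, 0.14, -0.36 and 0.19 at 7 days, close to 0 and to the untreated values of -0.12, 0.40 and 0.36, and its call was lost without 7 day replicate 3 (adjusted p 0.15). The G2/M list mean was -0.23 at 7 days, -0.19 at 5 days and -0.04 at 3 days. That of G1/S and replication was -0.09, -0.08 and -0.12.

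Of 19 genes known to mark transformed NIH3T3 cells, 7 were lower and 1, Lox, was higher, with a median of -0.27. Over all genes 1.18% were called lower and 1.08% higher. The late spread called 6 lower and 1 higher. Against untreated 12 of 19 were lower in sign, with a median of -0.26, and limma called 0. The arrays did not overlap for 7 genes below and 2 above, beside 3.34% and 3.88% of all genes. The list mean was -0.21 at 7 days, -0.24 at 5 days and -0.10 at 3 days. Cathepsin L (Ctsl), the major protease that transformed NIH3T3 cells secrete, read -0.88, -0.71, -1.13 and -1.06 at 7 days. The untreated arrays read 0.09, 0.41 and 0.68 and the early arrays 0.37 to 2.28, all of them higher. The difference was -2.21 ± 0.19 from 1 to 24 h (adjusted p 5.38e-09) and -1.32 ± 0.24 from untreated (adjusted p 0.177).

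The S100 proteins, small calcium-binding proteins, made up 3 of the 7. S100a4, linked to motility, read -0.69, -0.86, -0.46 and -0.81 at 7 days, against 0.08, 0.54 and 0.64 in untreated cells and 0.37 to 1.57 early (-1.75 ± 0.21, adjusted p 3.11e-06). S100a6 read -0.90, -0.91, -0.86 and -0.81 at 7 days, against 0.14, 0.02 and 0.88 in untreated cells and -0.12 to 1.21 early (-1.49 ± 0.19, adjusted p 9.21e-06). S100a10 read -1.31, -0.90, -0.84 and -1.27 at 7 days, against 0.24, -0.16 and 0.26 in untreated cells and -0.04 to 1.64 early (-1.78 ± 0.29, adjusted p 0.000311). All 3 genes lay below every untreated and early array. From 5 days S100a4, S100a6 and S100a10 differed by 0.17, 0.37 and 0.07, and none of them was called. The 2 probes of S100a10 differed from 1 to 24 h by -1.87 and -1.69, and the second was not called (adjusted p 0.21 in limma). The galectins bind sugar chains on the cell surface and in the matrix. Lgals1 read -0.21, -0.34, -0.32 and -0.83 at 7 days, against 0.03, -0.09 and 0.20 in untreated cells and 0.02 to 0.98 early. It differed by -0.92 ± 0.17 from 1 to 24 h (adjusted p 0.00106, and 0.138 with the late spread) but by -0.41 ± 0.35 from untreated. Lgals3 read -0.45, -0.70, -1.21 and -0.94 at 7 days, against 0.33, -0.12 and -0.16 in untreated cells and 0.16 to 1.34 early (-1.53 ± 0.29, adjusted p 0.0013). Tm4sf1, a surface protein of the tetraspanin-like family, read -1.22, -0.88, -0.68 and -1.02 at 7 days, against -0.03, 0.24 and 0.02 in untreated cells and 0.00 to 1.77 early. Its difference of -2.03 ± 0.24 from 1 to 24 h (adjusted p 1.48e-06) was -0.89 ± 0.40 from untreated.

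A few metabolic genes were called lower against 1 to 24 h, and no member of their 3 lists was called against untreated or against 0. Over all genes 1.18% were called lower against 1 to 24 h. Of 20 glycolytic genes 4 were lower (Aldoa, Eno1b, Pgam1, Pkm), with a median of -0.23, and of 70 genes of oxidative phosphorylation 4 were lower (Atp5b, Atp5g3, Atp5pb, Cox5b), with a median of -0.26. Of 26 genes of cholesterol and fatty acid synthesis Hmgcs1 and Scd1 were lower, with a median of -0.24. The array means of these lists overlapped between 7 days and untreated cells, at -0.35 to 0.14 against -0.09 to 0.07 for glycolysis, -0.17 to 0.07 against 0.04 to 0.20 for oxidative phosphorylation and -0.34 to 0.08 against -0.21 to 0.11 for lipid synthesis. Aldoa read -0.42, -0.38, -0.86 and -0.73 at 7 days, against -0.12, -0.13 and -0.16 in untreated cells and 0.02 to 0.69 early (-0.96 ± 0.12, adjusted p 4.42e-06). Leaving out 1 array ended 3 of the 4 calls of oxidative phosphorylation. Atp5b was lost without 7 day replicate 1, 3 or 4 (adjusted p 0.111, 0.0513 and 0.0612 in limma), Atp5g3 without replicate 4 (adjusted p 0.1) and Atp5pb without replicate 3 (adjusted p 0.0526). Gapdh, which acts in glycolysis and serves as a reference in many assays, had 2 probes called lower. Probe 16944 read -0.89, -0.96, -0.77 and -0.80 at 7 days, against -0.09, -0.52 and -0.20 in untreated cells and 0.49 to 1.48 early (-1.76 ± 0.19 from 1 to 24 h, adjusted p 5.98e-07). Probe 19122 read -0.40, -0.46, -1.33 and -1.37 at 7 days, against -0.83, -0.49 and -0.45 in untreated cells and 0.50 to 1.42 early (-1.80 ± 0.19, adjusted p 4.57e-07). It overlapped with the untreated arrays, and the differences from untreated were -0.50 ± 0.34 and -0.29 ± 0.42. The gene mean of Gapdh, which takes in another probe with no value at 7 days, differed by -1.76 ± 0.54 from 1 to 24 h and was not called (adjusted p 0.0917). Psat1, of serine synthesis, read -0.98, -1.06, -3.28 and -1.95 at 7 days, against -0.15, 0.54 and 0.19 in untreated cells (-2.18 ± 0.38 from 1 to 24 h, adjusted p 0.000637).

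Cytosolic ribosomal proteins were mostly lower in sign, 48 of 55 against 1 to 24 h with a median of -0.30 and 49 of 57 against untreated with a median of -0.46. In these comparisons 2 and 0 of them were called lower, where 1.18% and 0% of all genes were. Of the 2, Rpl19 and Rplp0, the call of Rpl19 was lost without 7 day replicate 2, 3 or 4 (adjusted p 0.0638, 0.309 and 0.281 in limma) and with the late spread (adjusted p 0.291). The list mean was 0.00 and -0.21 on the Cy5 arrays of 7 days and -0.41 and -0.45 on the Cy3 arrays, so it differed by dye within the group. It was higher in sign for 49 of 58 genes against 5 days (median 0.28), where the arrays read -0.51 to -0.60. The part of the dye in this difference was not tested.

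Other lists held 1 to 5 called genes. Adamts1, a secreted metalloprotease, was higher by 2.04 ± 0.26 (adjusted p 8.39e-06), though its 7 day values of 0.79, 0.86, 0.61 and 0.55 overlapped with the untreated values of -0.43, 0.21 and 0.68. Angptl4, an inhibitor of lipoprotein lipase, read 2.19, 1.61, 0.86 and 1.2 at 7 days, against -0.17, 0.25 and 0.32 in untreated cells (1.49 ± 0.23 from 1 to 24 h, adjusted p 0.000114). Hmox1, which breaks down haem, read 1.05, 1.13, 0.53 and 1.32, against -0.13, 0.09 and 0.05 in untreated cells (1.01 ± 0.13, adjusted p 1.19e-05). Gja1, the gap junction protein connexin 43, read -1.03, -0.70, -0.52 and -0.66 at 7 days, against 0.08, -0.30 and 0.46 in untreated cells and -0.07 to 1.03 early (-1.14 ± 0.20, adjusted p 0.000735). Among 7 genes often used as references, Ppia and Rplp0 were called lower on gene means, beside the Gapdh probes above. Ppia, a prolyl isomerase, read 0.27, 0.25, -0.61 and -0.41 at 7 days, against 0.09, 0.40 and 0.41 in untreated cells and 0.43 to 1.23 early (-0.93 ± 0.14, adjusted p 9.02e-05), so it differed in sign by dye and overlapped with untreated. Rplp0, a protein of the ribosomal stalk, read -0.56, -0.57, -0.76 and -1.14 at 7 days, against 0.01, 0.03 and 0.16 in untreated cells (-1.01 ± 0.15, adjusted p 5.99e-05). No gene was called among 24 of interferon and antigen presentation or among 20 chemokines, cytokines and acute phase genes, where 2.26% of all genes were.

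**Figure D4:**
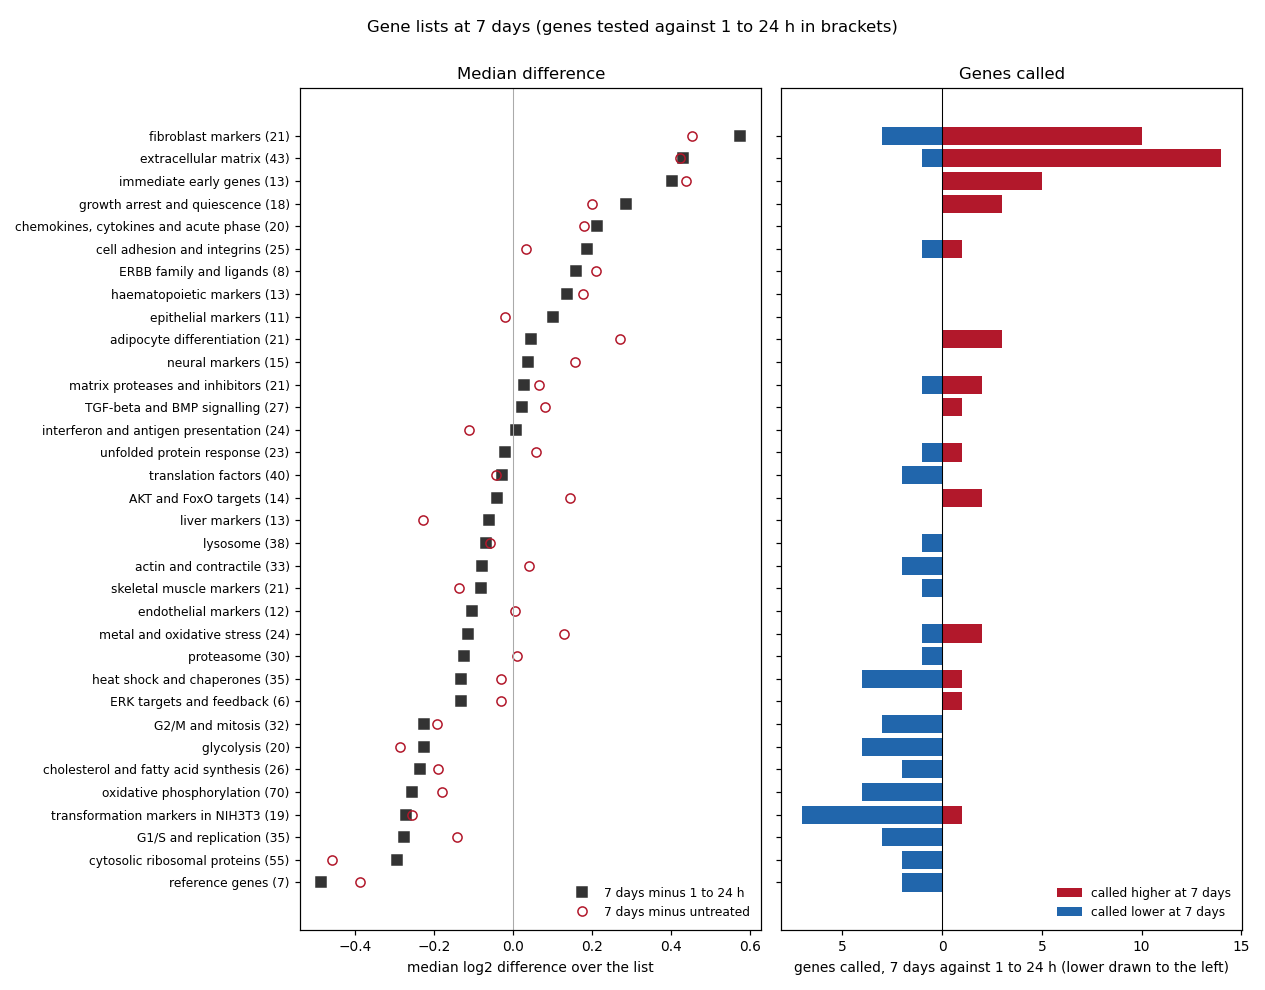
Left, median log2 difference of each gene list at 7 days from 1 to 24 h (squares) and from untreated (open circles). Right, genes called higher (red) and lower (blue, drawn to the left) against 1 to 24 h. The matrix list has 14 higher and 1 lower and the list of transformation markers 1 higher and 7 lower.

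The labelled cell type was checked against fibroblast markers. Of 21 tested 10 were higher and 3 lower (Fn1, S100a4, Vim), and most of the 10 are matrix genes counted above. Ratios do not show whether a gene is expressed. Among markers of other cell types, limma called 0 of 11 epithelial, 0 of 12 endothelial, 0 of 13 haematopoietic, 0 of 13 liver and 0 of 15 neural genes. With 2.26% of all genes called, a count of 0 in lists this short is near the background and shows nothing particular to these markers. Of 21 skeletal muscle genes Casq1 was lower. The epithelial list mean ran from 0.01 to 0.26 at 7 days and from -0.40 to 0.79 on the untreated arrays, and the haematopoietic from -0.03 to 0.20 and from -0.34 to 0.05. Their part in the results was not tested. In bulk RNA, fewer cells of a type and less RNA per cell cannot be told apart.

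The comparisons with the neighbouring late times ask what differed between days. Against 3 days limma called 0 of 16322 probes (percent called 0), with 1235 (7.57%) at an unadjusted p under 0.05, and 3 of 8475 gene means (0.0354%), all higher at 7 days, with 7.72% of genes at an unadjusted p under 0.05. They were Ier3, Ccn1 and Ogn. Ier3 read 1.53, 1.54, 1.03 and 1.13 at 7 days, against -0.44, -0.56, -0.41 and 0.08 at 3 days (1.64 ± 0.22, adjusted p 0.0203). Ccn1 read 1.08, 0.85, 0.60 and 0.75 at 7 days, against -0.61, -0.39, -1.35 and -1.85 at 3 days (1.87 ± 0.25, adjusted p 0.0203). Ogn stood at 0.64, 0.49, -0.44 and -0.58 at 3 days, below its 7 day values (1.82 ± 0.24, adjusted p 0.0378). These calls sit near the threshold: without 7 day replicate 1, 2, 3 or 4 the adjusted p of Ier3 was 0.0669, 0.108, 0.0766 and 0.0576, and the calls of Ccn1 and Ogn were likewise lost without any one of the 4. All 3 calls also ended with the replicate number as a block, with only the arrays of 7 and 3 days in the fit and without centring, each of which called 0 genes. The 3 day values of Ogn differed in sign by dye. After turning, 3 day arrays of opposite dye correlated at a Spearman rho of -0.27 to -0.20, and those of 1 dye at 0.264 and 0.338. The interquartile range of the 3 day arrays was 0.75 to 1.42, so they are a less even reference than the other groups.

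Against 5 days limma called 1 of 17136 probes (0.00584%), with 1061 (6.19%) at an unadjusted p under 0.05, and 0 of 8732 gene means (percent called 0), with 513 (5.87%) at an unadjusted p under 0.05. The probe, 13658, has no gene symbol and was lower at 7 days. Its call was lost when any 1 array of 7 or 5 days was left out. Among matrix genes the median difference was 0.16 from 5 days and 0.37 from 3 days, against 0.0034 and 0.006 over all genes, with 12 and 6 genes above without overlap (2.78% and 1.75% of all genes). Postn read 0.58, 1.18, 0.90 and 0.78 at 7 days, against -0.91, -0.56, -0.37 and -0.85 at 5 days, and Ctsl read -0.88, -0.71, -1.13 and -1.06 at 7 days, against 0.23, 0.15, 0.05 and -0.10. Neither difference was called (adjusted p 0.191 and 0.349), although the arrays did not overlap. Lox read 1.41, 1.39, 1.23 and 1.53 at 7 days, against 1.51, 1.64, 1.56 and 1.48 at 5 days, and the groups overlapped. Its difference was -0.15 ± 0.22 (adjusted p 0.999).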

How the data were processed

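Per the labels, total RNA of treated cells (channel 1) and of untreated cells of the same line (channel 2) was hybridised together to cDNA arrays. The labels' shared protocol text mentions organs and a pool of animals as reference, unlike the source names, which were followed here. The deposited values are log2 ratios. Background correction, normalization and software are not given in the sources used here.

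Values above 12 (2807 in the series, 387 at 7 days) were set to missing, arrays were centred on their median, and Cy3 arrays were multiplied by -1. On the 8 arrays of 5 and 7 days, values had slid against the 20355 probe rows at 4 places. On 5 day replicate 1 the values were also off by 1 row from the first row on. The displaced values were moved back, leaving out 497 probes per array (those near the slides and from row 20189 on). The Spearman rho of probe pairs of 1 gene at 7 days was -0.0005 as deposited and 0.052 moved back, against 0.079 at 3 days. A plain shift of the annotation by 3 rows gave 0.055 at 7 days. At 5 days rho was 0.041 as deposited, 0.072 with the plain shift and 0.061 moved back. These values therefore do not tell the plain shift from the move in steps. They are across genes, which are not independent replicates. Of the probes, 14030 have 1 gene symbol, 5 several and 6320 none. Before turning, 41.1% of the 397 probes whose 2 Cy5 values at 7 days exceeded 1 in size had both Cy3 values of opposite sign, and 21.7% of the same sign. Opposite signs were also the more frequent at 5 days (59.5% and 14.3%) and at 1, 2 and 24 h. The same sign was more frequent at 3 days (14.8% opposite, 47.8% same), 4 h (36.1% and 42.0%) and 12 h (19.4% and 39.6%).

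Tests used limma 3.58.1 in R 4.3.3 (lmFit, eBayes, a dye effect per probe, at least 3 values per group, Benjamini-Hochberg, called at an adjusted p under 0.05), and were tested on simulated data with known changes. Where the noise was 1 spread per probe scaled by group, false calls stayed within the threshold, and where it followed each group's own arrays they exceeded it in the comparisons with untreated and with 1 to 24 h (other comparisons were not simulated). Comparisons with untreated, 5 and 3 days were fitted on the arrays of those groups and of 7 days, and that with 1 to 24 h on all groups with array weights per group. Gene means average all probes of a gene. Limiting them to the probes present on every array, the late spread and leaving out the 3 day arrays were chosen after seeing the data. The gene lists, the members and the tests were chosen with earlier results of these data known. Named are, against untreated, up to 15 called probes per direction, filled to 12 by smallest p; up to 4 called members per list by smallest p; and up to 5 called probes per direction in the other comparisons. A further gene named where a list count is spelled out was chosen after its values were seen.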

Additional observations from a re-analysis of the deposited data

Results flagged for a closer look

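In 29 groups of 4 arrays that were checked, 2 probes had one 7 day array far from the other 3, and chance alone singles out about 1 group in 20. Marcks probe 4233 read 1.09 on 7 day replicate 1, and the other 3 arrays read 1.76 to 1.85. Lox probe 1602 read 1.10 on 7 day replicate 3, and the other 3 arrays read 1.51 to 1.57. One probe differed between 7 and 5 days by limma's test of that difference: probe 13658, which has no gene symbol, read 0.85, 0.74, 0.65 and 0.45 at 7 days, against 2.29, 2.36, 2.34 and 2.32 at 5 days (-1.65, adjusted p 0.0213). It read 0.77 to 0.96 at 3 days, so the 5 day arrays were the ones that stood apart. The call of probe 13658 was lost when any 1 array of 7 or 5 days was left out.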

How the results depend on the processing

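No cause was tested for any of the changes below. Against untreated, the 1 probe called became 0 with rows as deposited, without centring or with only the compared arrays, 4 with quantile normalization, 2 with at least 2 values per group, 201 with all arrays and 1 spread, 38 with weights per group, 52 with weights per array and 92 against 0. Leaving out 1 array gave 1 to 3. The 0 genes became 2, 106, 22, 15 and 49 (at least 2 values, 1 spread, weights per group, weights per array, against 0) and 4 with the same probes on every array, and 0 to 2 with 1 array left out. Against 5 days, the 1 probe became 0 without turning, as deposited, without centring, with only the compared arrays, without the 3 day arrays or with the replicate block, 2 with a dye effect for each group, 345 with 1 spread, 48 with weights per group and 29 with weights per array, and 0 to 1 with 1 array left out. Probe 13658 itself was called in none of the fits with a 7 or 5 day array left out. The 0 genes became 1, 151, 13 and 5 (dye per group, 1 spread, weights per group, weights per array). Against 3 days, the 0 probes became 21 without turning, 6 as deposited, 4 with dye per group, 391 with 1 spread and 3 with weights per group, and 0 to 5 with 1 array left out. The 3 genes became 6 without turning, 0 without centring, with only the compared arrays or with the replicate block, 9 with dye per group and 166 with 1 spread, and 0 to 8 with 1 array left out. Against 1 to 24 h, the 339 probes became 12 without turning, 532 with quantile normalization, 892 with 1 spread and 169 with the late spread, and 236 to 304 with 1 array left out. The 194 genes became 4 without turning, 442 with 1 spread and 118 with the late spread, and 155 to 171 with 1 array left out. The same-probe gene means called 212, of which 179 were shared with the 194. The replicate block gave 1 probe against untreated, 332 probes and 181 genes against 1 to 24 h. Same-numbered arrays of 7 days and other groups had correlations of their deviations of -0.043, -0.018 and -0.047 for untreated, 0.056 to 0.103 for 5 days and 0.024 to 0.091 for 3 days, so the numbers do not pair the arrays. Without turning the Cy3 arrays, these log2 differences took the opposite sign: against untreated Plpp3 probe 2228 -0.30, Sned1 probe 18268 -0.018, Btg2 probe 3966 -0.22, Dcn probe 18890 -0.21, Lgi2 probe 16525 -0.52, Ppp1r2-ps6 probe 15226 -0.76, Marcks probe 4233 -0.71, Xbp1 probe 16689 -1.76, S100a10 probe 18275 0.74, Ctsl probe 12310 0.54, Fn1 probe 19922 0.49, Ncbp1 probe 12431 0.98, Psat1 probe 2327 1.5, Akap9 probe 9388 0.52, Mmp9 probe 18813 0.46, Fn1 probe 18348 0.27, Fn1 probe 1795 0.40, Ccna2 probe 10601 0.44, Iars probe 1482 0.036, Nme2 probe 4930 0.65. Opposite signs also came up against 1 to 24 h for S100a10 probe 18275 0.012, Ctsl probe 12310 0.055, Kpna2 probe 14426 0.18, Gapdh probe 19122 0.58, Aldoa 0.15, Atoh8 -0.17, Atp5g3 0.51, Atp5pb 0.10, Btg2 -0.056, Capg 0.47, Casq1 0.035, Ccna2 0.36, Cct5 0.087, Cox5b 0.021, Ctsl 0.055, Eif3h 0.093, Eno1b 0.14, Fbln2 -0.11, Fn1 0.022, Foxo3 -0.10, Hspd1 0.11, Ier2 -0.091, Lgals1 0.28, Lgals3 0.27, Mcm5 0.15, Mmp2 -0.24, Pcna 0.057, Pkm 0.091, Ppia 0.32, Psat1 0.78, Psma5 0.25, Rpl19 0.28, Rplp0 0.15, S100a10 0.023, S100a6 0.057, Serpinh1 -0.054, Txn1 0.058, Vim 0.16. The same held against 3 days for Ccn1 -0.41, Ogn -0.42. With rows left as deposited, the sign turned against untreated Sned1 probe 18268 -0.85, Dcn probe 18890 -0.12, Lgi2 probe 16525 -1.29, Plpp3 probe 16325 -0.045, Fn1 probe 19922 0.094, Ncbp1 probe 12431 0.42, Fn1 probe 18348 0.39, and against 1 to 24 h Cct5 1.61, Cebpd -0.39, Hsp90b1 -0.16, Ier3 -0.064, Lgals1 0.085, Psma5 0.31, Txn1 1.44. The files give no signal over background, so the precision rests on 4 arrays at 7 days and 3 untreated arrays, and all signs on the assumed direction.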

Other observations

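Genes not described above also changed in the comparison with 1 to 24 h. Probe 19380 of Itm2b, a small membrane protein, read 1.00, 1.27, 0.95 and 1.04 at 7 days, against -0.10, 0.04 and 0.40 in untreated cells and -1.06 to -0.08 at 1 to 24 h (1.69 ± 0.16, adjusted p 7.87e-08 in limma). Probe 12747 of the gene differed by 1.37 ± 0.24 (adjusted p 0.000774), but probe 15582 by -0.01 ± 0.39 (adjusted p 0.999). The gene mean read 0.59, 0.65, 0.75 and 0.305 at 7 days and differed by 1.01 ± 0.18 from 1 to 24 h (adjusted p 0.000605). The nuclear import receptor Kpna2 read -0.58, -0.41, -1.04 and -0.89 at 7 days, against 0.55, -0.33 and -0.06 in untreated cells and 0.28 to 1.47 at 1 to 24 h (-1.67 ± 0.17, adjusted p 2.36e-07 in limma, and -0.80 ± 0.30 from untreated, not called). Cebpd, a transcription factor of early fat cell differentiation, read 1.10, 1.04, 0.44 and 0.64 at 7 days, against -0.31, 0.03 and -0.08 in untreated cells, and lay below 1.85, 1.96, 1.55 and 1.51 at 5 days. Its call against 1 to 24 h (0.95 ± 0.21, adjusted p 0.00642 in limma) was lost without 7 day replicate 1 (adjusted p 0.065).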
